A study of Mus musculus with 4 samples.

Results

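The olfactory receptor cluster of mouse chromosome 2 was examined as 288 of the 37778 peaks in a list of regions where anti-FLAG ChIP exceeded input (0.762% of the list). Members were the peaks on chromosome 2 of mm9 whose midpoint lay from 85000000 to 90300000. The region was selected on the measured density of peaks, so its number of peaks, widths, read counts and ratios are given as a description without a test. Members were set beside the 133 peaks between 80 Mb and the cluster, called the proximal flank, and the 28 peaks between the cluster and 95 Mb, called the distal flank.

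The study mapped MBD1 by ChIP-seq in the dentate gyrus, a part of the hippocampus, of C57BL6 mice around 9 weeks old. All 4 libraries came from a mouse line that carries FLAG-tagged Mbd1. The ChIP group was 2 libraries precipitated with an anti-FLAG antibody, and the Input group was 2 libraries made with no antibody. The list gives 1 value per peak for the 2 ChIP libraries together and 1 for the 2 inputs, so no value here has a replicate error, and neither the animals behind a library nor its depth is given in the sources used here. No ChIP from mice without the tag was analysed here, so antibody background and tagged protein cannot be told apart. A peak list holds no expression, so the tissue could not be checked against marker genes.

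MBD1 is a protein with a domain that binds methylated CpG dinucleotides and with zinc fingers of the CXXC type, and it is known as a repressor of transcription and for a role in adult hippocampal neurogenesis. Olfactory receptors are G protein-coupled receptors of the nose. Each sensory neuron expresses a single allele of this large gene family, while other tissues keep most of the family silent in compact chromatin. The genes lie in long tandem arrays, of which the one on chromosome 2 is the largest in the mouse.

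The list carries no gene names, so the label of the region rests on its position and could not be tested against the peaks. Gene order was taken from the RefSeq table of GRCm38.p6, a later build than that of the peaks, and no gene was assigned to a peak. In that order the array ran from Olfr987 to Olfr1274 and held 293 receptor genes, 222 of them protein coding and 71 pseudogenes. The other 39 genes within it included 3 protein coding genes, which were Fads2b, a member of the fatty acid desaturase family, and the PRAME-like genes Pramel7 and Pramel6. The nearest protein coding neighbours were Lrrc55, Aplnr (the apelin receptor), Tnks1bp1 and Ssrp1 (a subunit of the histone chaperone FACT) on one side. On the other side were Ptprj (a receptor tyrosine phosphatase), Gm46752, Nup160 (a nucleoporin) and Fnbp4. A tandem family with few interruptions was thus bordered on both sides by unrelated single genes.

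Since CpG is the dinucleotide that MBD1 recognises when methylated, 5 promoter windows are shown to compare the array with its neighbours. They are the first, the middle and the last receptor of the array with an entry in the RefSeq promoter table (the 94th of 186 for the middle one), and the nearest protein coding neighbour with an entry on each side. Each runs 5′ to 3′ on the strand of its gene, from 250 bases before the annotated start to 50 after it, with CpG in capitals. Positions are on GRCm38.p6, not on the build of the peaks. Whether a window lies in a peak was not analysed here.
Lrrc55, chr2:85198701-85199000, minus strand: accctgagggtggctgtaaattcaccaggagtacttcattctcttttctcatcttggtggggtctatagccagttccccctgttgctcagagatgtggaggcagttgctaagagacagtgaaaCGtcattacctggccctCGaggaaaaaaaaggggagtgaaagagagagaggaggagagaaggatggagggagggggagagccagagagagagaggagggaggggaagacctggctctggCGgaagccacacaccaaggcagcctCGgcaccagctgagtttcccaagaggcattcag
Olfr988, chr2:85353875-85354174, minus strand: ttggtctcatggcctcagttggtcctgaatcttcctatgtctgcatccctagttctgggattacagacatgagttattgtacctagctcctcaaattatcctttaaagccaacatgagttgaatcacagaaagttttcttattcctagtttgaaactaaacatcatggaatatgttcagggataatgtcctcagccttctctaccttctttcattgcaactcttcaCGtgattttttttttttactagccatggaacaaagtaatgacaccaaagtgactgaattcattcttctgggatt
Olfr1152, chr2:87867743-87868042, plus strand: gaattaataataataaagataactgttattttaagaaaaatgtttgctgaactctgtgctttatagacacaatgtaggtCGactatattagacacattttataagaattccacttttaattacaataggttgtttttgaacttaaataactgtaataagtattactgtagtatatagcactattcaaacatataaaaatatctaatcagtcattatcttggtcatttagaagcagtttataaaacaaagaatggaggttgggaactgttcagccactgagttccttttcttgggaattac
Olfr1274, chr2:90400390-90400689, plus strand: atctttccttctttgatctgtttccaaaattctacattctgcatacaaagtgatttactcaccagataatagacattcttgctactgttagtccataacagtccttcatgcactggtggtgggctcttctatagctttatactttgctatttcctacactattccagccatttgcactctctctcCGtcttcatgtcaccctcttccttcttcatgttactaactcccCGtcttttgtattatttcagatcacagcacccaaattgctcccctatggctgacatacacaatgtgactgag
Ptprj, chr2:90479125-90479424, minus strand: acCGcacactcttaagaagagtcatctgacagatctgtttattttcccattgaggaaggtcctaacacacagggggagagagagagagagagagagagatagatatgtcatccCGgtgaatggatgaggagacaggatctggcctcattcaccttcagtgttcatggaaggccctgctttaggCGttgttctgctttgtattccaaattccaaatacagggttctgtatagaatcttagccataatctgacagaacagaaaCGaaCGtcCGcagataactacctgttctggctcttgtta

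Promoter windows of the array were poor in CpG. The windows of Olfr988 and Olfr1152 each held 1 CpG and that of Olfr1274 held 2, against 4 in Lrrc55 and 6 in Ptprj. Ptprj had 2 windows in the promoter table, of which only the first is shown. Of the 293 receptor genes, 186 had an entry, with 187 windows. Their median was 1 CpG in 300 bp (interquartile range 0 to 2, highest 7). No CpG was found in 67 of the 187 windows (35.8%), and 137 (73.3%) held at most 1. The 32664 windows of all other genes had a median of 7 CpG (3 to 20), and 13.8% of them held at most 1. The 22 windows of the 12 nearest protein coding genes on each side, of which 18 genes had an entry, had a median of 20.5.

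The array was also rich in A and T, with a median GC content of 32% against 53% in the windows of all other genes. The 761 windows of receptor genes outside the array had the same median of 1 CpG and a median GC content of 36.7%. The palindrome TAATTA, a core of homeodomain binding sites, was present in 46 array windows (24.6%), among them that of Olfr1152, in 17.1% of the windows of receptors outside the array and in 5.18% of the windows of all other genes. An ATG stood exactly at the annotated start in 130 of the 187 array windows (69.5%), 73.1% of the windows of other receptors and 5.46% of the windows of all other genes, so most array windows lie before a start codon and may not hold the start of transcription.

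**Figure D1:**
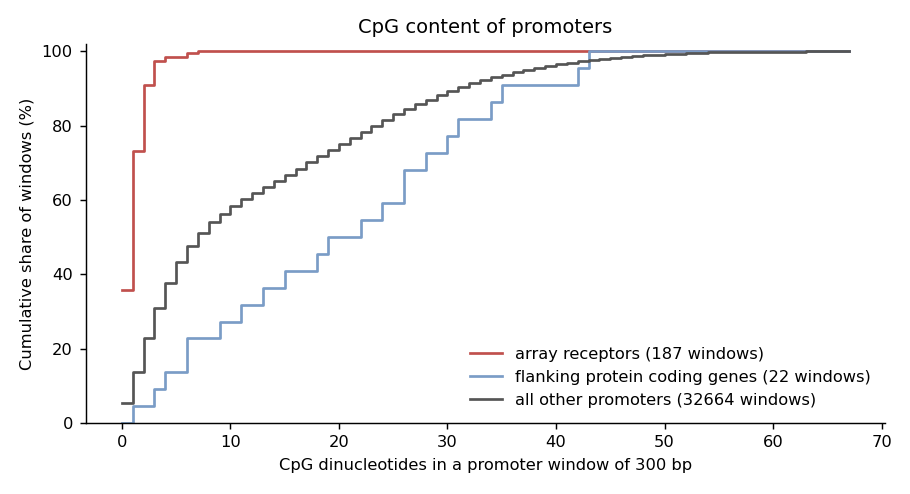
Cumulative share of promoter windows (y axis, %) by the number of CpG dinucleotides in a window of 300 bp (x axis), for the 187 windows of array receptors, 22 of flanking protein coding genes and 32664 of all other genes. The array curve reaches 73.3% at 1 CpG and 100% at 7, where the other curves are still low or rising.

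Peaks in the cluster were close together and covered a large part of the DNA. The 288 members gave 54.3 peaks per Mb, against 26.6 in the proximal and 5.96 in the distal flank. They covered 1.57 Mb, or 29.6% of the region, against 11.4% and 1.38%. The density, on which the region was selected, was 3.27 times that of both flanks together, and the covered share was 4.52 times as large. The 95% counting interval of the density ratio, 2.69 to 4.0, treats peaks as independent. It holds neither the 2.04 times over the proximal flank alone nor the 9.12 times over the distal flank alone. With 0.762% of the peaks of the list, the cluster held 1.06% of its bases. The flanks differed from each other, so each is given separately below.

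Coverage rose over 500 kb at the proximal border, to a level also found farther inside, and fell within 250 kb at the distal one. Joining peaks under 100 kb apart gave 1 dense stretch, from 85057800 to 89988799 (4.93 Mb), which held 284 of the 288 members and covered 31.5% of its length. No peak lay in the 697.6 kb before it, where the last peak of the proximal flank ended at 84360221. The first 250 kb inside the proximal edge were covered to 10.7%, close to the 11.4% of the whole proximal flank, the next 250 kb to 23.5% and those after them to 46.4%. In the whole 1 Mb inside this edge there were 54 peaks and 27.3% coverage, against 7 peaks and 2.73% in the 1 Mb outside.

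The distal edge was steeper. The last 250 kb of the stretch were already covered to 31.1%, and the first 250 kb beyond it to 5.28%. The 1 Mb inside held 58 peaks with 31.5% coverage, and the 1 Mb outside held 7 with 1.84%. A gap of 114.4 kb separated the stretch from the last 4 members, between 90103214 and 90147878. Beyond them the next peak began at 90667600.

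Peaks at the borders are given in order of position. The first member, from 85057800 to 85058968, was narrow (1169 bp) and had the highest mean ChIP of all 288, at 83.3 reads per bin over 6.83 of input. Its summed ChIP was 5.04 times the scaled input, with a 95% counting interval of 3.66 to 7.11. Here scaled input is the input multiplied by the constant of 2.42 that the authors used to bring it to the level of ChIP. The next members (85081000 to 85083124 and 85102000 to 85104783) had log2 ratios of 1.14 and 1.12. The last 3 members, at 90126504, 90133686 and 90144802, had log2 ratios of 1.07, 1.45 and 0.98. Just outside, the peaks at 84357825, 84326427 and 84286473 had log2 ratios of 0.68, 0.93 and 1.89. Those at 90667600, 90935230 and 90942346 had 1.11, 1.18 and 0.97. The peaks at 90935230 and 90942346 stood apart in depth, with 137.4 and 110.8 ChIP reads per bin over 23.3 and 19.9 of input.

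**Figure D2:**
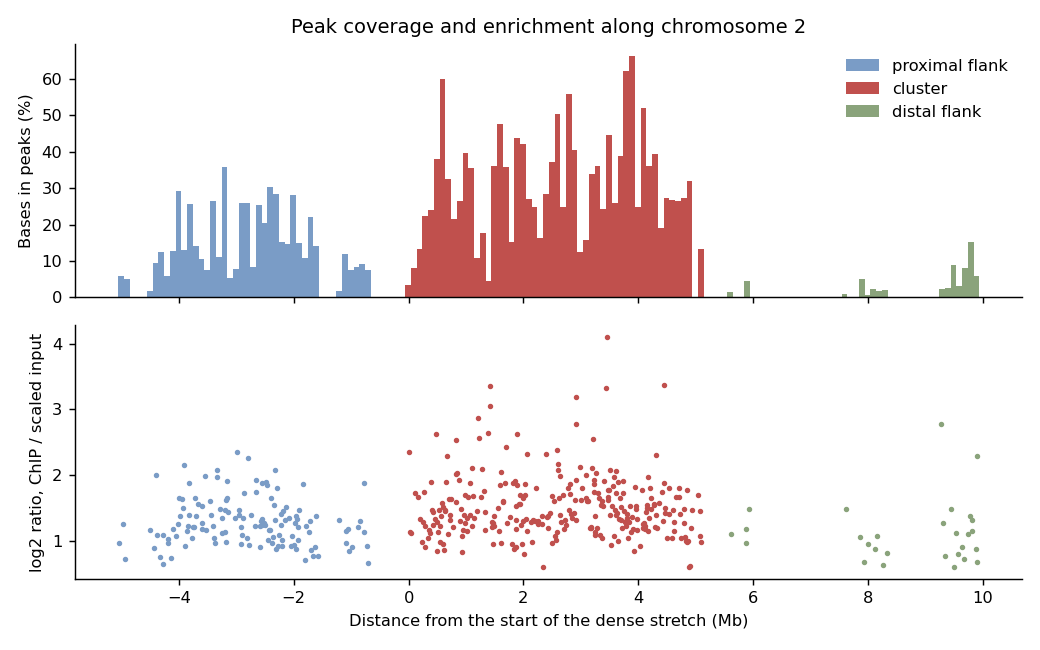
Upper panel: share of bases in peaks (y axis, %) in windows of 100 kb along chromosome 2, by distance from the start of the dense stretch (x axis, Mb); lower panel: deposited log2 ratio of each peak on the same axis. Cluster windows reach 66.3%, those of the proximal flank 35.9% and those of the distal flank 15.3%. The flank window beside each border holds no peak base. The log2 ratios of members lie between 0.60 and 4.10 over the whole stretch.

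Coverage within the cluster was nearly continuous at the scale of 100 kb but uneven. Of its 53 windows of 100 kb, 44 were covered to at least 15%, and 2, both beyond the dense stretch, held no base of a peak. The proximal flank had 13 such windows of 50 and the distal flank 1 of 47, with no peak base in 12 and 32. The median window was covered to 27.2% in the cluster, 9.26% in the proximal and 0% in the distal flank. Coverage of at least 50% occurred in 6 cluster windows and in no flank window. The fullest window, from 88.9 to 89 Mb, was covered to 66.3% by 6 peaks, while the fullest of the proximal flank reached 35.9%.

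Neighbouring peaks were mostly under 10 kb apart (58.9% of gaps). The median gap was 8028 bp (95% interval 6057 to 9206, 287 gaps), against 15670 bp in the proximal flank (13287 to 20124) and 58351 bp in the distal flank (27542 to 83738). Gaps under 5 kb made up 39.7% in the cluster, 16.7% in the proximal flank and 3.70% in the distal flank. Both flanks together had a median gap 2.42 times that of the cluster. This ratio was 1.02 among peaks with ChIP at or above the median of the list, and 0.562 among peaks with a mean p of at most 0.05, of which the flanks held 2. Within the dense stretch the 4 longest gaps were 75.2 kb after 88073337, 68.2 kb after 85104783, 62.3 kb after 87314284 and 58.6 kb after 87983591. A limit of 50 kb on the gap therefore broke the stretch, and the piece with most members then ran from 88148504 to 89422599 (1.27 Mb, 94 peaks). A limit of 200 kb took in all 288 members. The length of 4.93 Mb thus depends on the limit, while the gap of 697.6 kb before the stretch is longer than all 3 limits.

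Divided into 5 parts of equal length, the stretch varied little in median ChIP and input. Peak numbers were 54, 51, 53, 69 and 57 from the proximal to the distal end, and covered shares were 27.7%, 27.8%, 34.1%, 36.8% and 31.2%. Median ChIP stayed between 55 and 57.3 reads per bin, and median input between 9.14 and 10.5. For ChIP, the 95% interval of the first part (56.25 to 60.1) lay above that of the second (52.9 to 56.0), a difference that was not tested. The lowest median input was in the fourth part (95% interval 8.24 to 10.2), which overlapped the interval of the highest (9.87 to 11.3 in the fifth part). In windows of 0.5 Mb the lowest median input, 8 reads per bin, was from 88 to 88.5 Mb.

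Members were wide rather than tall. Their median width was 4468 bp (95% interval 3934 to 4746, interquartile range 2934 to 7131), against 3550 bp in the proximal flank, 1796 bp in the distal flank and 3085 bp in the whole list. A width of 10 kb or more was reached by 35 members (12.2%, exact 95% interval 8.61 to 16.5%), 6 of 133 proximal peaks, none of 28 distal peaks and 4.30% of the list. These 35 members held 29.9% of the peak bases of the cluster. The highest bin of a member held a median of 83 ChIP reads and the summit a median pile-up of 59, against 84 and 61 in the whole list.

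The 5 widest members show the form of these domains. The widest ran from 88942365 to 88965397 (23033 bp), with a mean of 56.8 ChIP reads per bin, 10.9 of input and 95 ChIP reads in its highest bin. Its summed ChIP was 2.16 times the scaled input (2.03 to 2.29). The others ran from 85609504 to 85630451 (20948 bp, 2.30 times), from 86761600 to 86781799 (20200 bp, 2.17 times), from 87834542 to 87854399 (19858 bp, 2.35 times) and from 87902193 to 87919999 (17807 bp, 2.21 times). All 5 carried the authors' quality flag, which was on 77.1% of members of 10 kb or more and on 58.1% of such peaks outside the cluster. The folds of the 5 lay close together although these peaks were spread over the stretch. Input over the 5 ranged from 9.43 to 10.9 reads per bin.

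Members had slightly fewer ChIP reads and fewer input reads per bin than other peaks. Median ChIP was 56.0 reads per bin (55.4 to 56.8) against 57.8 (56.8 to 59.3) in the proximal flank, 67.7 (62.8 to 103) in the distal flank and 58.8 in the whole list. Median input was 9.92 (9.59 to 10.3) against 11.2 (10.7 to 11.8), 15.5 (13.6 to 20.8) and 11.9. Input was below the median of the list in 225 members (78.1%) and ChIP in 213 (74.0%). The distal medians mix unlike peaks. Median ChIP was 112 and input 21.9 from 93 to 93.5 Mb, against 60.1 and 13.6 from 94.5 to 95 Mb. In the cluster and both flanks, values of single peaks overlapped widely.

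The median log2 ratio of ChIP to scaled input was accordingly higher, at 1.43 (1.38 to 1.49), against 1.24 (1.18 to 1.32) in the proximal flank, 1.07 (0.88 to 1.18) in the distal flank and 1.20 in the list. ChIP minus scaled input had an interval in the cluster that overlapped those of both flanks. Its median was 31.8 reads per bin in the cluster (30.7 to 32.6), 30.1 in the proximal flank (27.5 to 31.6), 36.2 in the distal flank (29.3 to 52.5) and 30.5 in the list. In the same unit, the median of scaled input was 24.0 in the cluster (23.2 to 24.9) and 27.1 in the proximal flank (25.9 to 28.6). In the list it was 28.8. The part of input in the higher ratio was not tested. Across members the log2 ratio followed input with a Spearman's rho of -0.91 and ChIP with -0.40 (n = 288 peaks of the same libraries, ratio and input sharing a term). A log2 ratio above 2 occurred in 34 members (11.8%), beside 7.73% of all 37778 peaks, and these 34 had a median input of 5.64 reads per bin. The promoter windows of the array had a low GC content (32%), and the part of base composition in the low input was not tested.

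**Figure D3:**
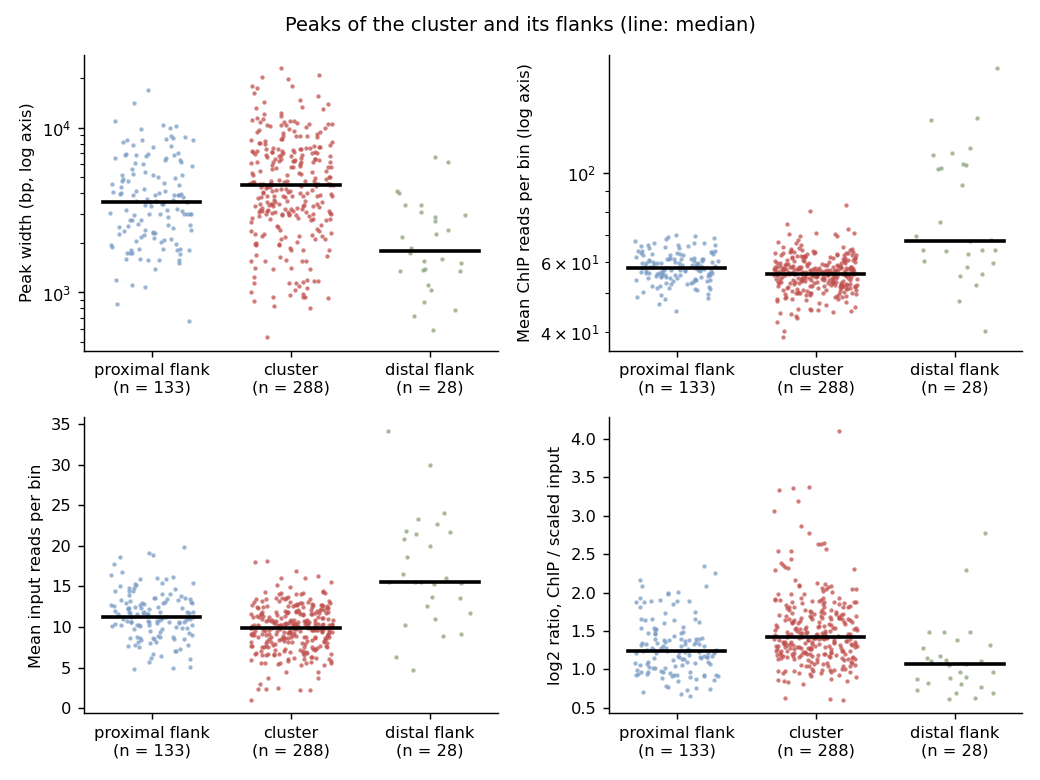
Width (bp), mean ChIP and mean input reads per bin, and log2 ratio (y axes) of every peak in the proximal flank, the cluster and the distal flank (x axis), with a line at each median. The cluster has the highest median width (4468 bp) and log2 ratio (1.43) and the lowest median input (9.92), while the clouds of points overlap.

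The authors' quality flag was more frequent in the cluster. A peak carried it without exception where the smallest p of its bins was at most 0.0001. It was carried by 130 of 288 members (45.1%, exact 95% interval 39.3 to 51.1%), where 30.8% of all peaks carried it. The proximal flank had 35 of 133 (26.3%, 19.1 to 34.7%) and the distal flank 14 of 28 (50%, 30.6 to 69.4%). The excess was therefore over the proximal flank and the list, not over the distal flank as a whole. The distal flank was mixed. There the flag was on 3 of 4 peaks from 90.5 to 91 Mb, 3 of 3 from 92.5 to 93 Mb and 5 of 5 from 93 to 93.5 Mb. Farther out it was on 1 of 3 from 94 to 94.5 Mb and 2 of 13 from 94.5 to 95 Mb. The mean p of the bins was at most 0.05 in 16 members (5.56%, 3.21 to 8.87%), against 3.17% of all peaks, 2 proximal and no distal peak. The 16 were spread from 85324400 to 89982948, with a median width of 7253 bp, a median log2 ratio of 1.73 and the quality flag on 14.

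A wide peak has more bins among which the smallest p is taken, so the flag was also counted by width. Among peaks under 2 kb it was on 18 of 42 members (42.9%) and on 36.2% of the peaks outside the cluster. Among peaks of 2 to 5 kb the shares were 33 of 125 (26.4%) and 24.1%. At 5 to 10 kb they were 52 of 86 (60.5%, 49.3 to 70.8%) and 33.2%, and at 10 kb or more 27 of 35 (77.1%, 59.9 to 89.6%) and 58.1%. The share in members was the higher one in all 4 classes, but below 5 kb the intervals of the members held the share of the peaks outside. The gap between the shares was widest at 5 to 10 kb. These shares are over peaks of the same pooled libraries and no difference between them was tested. Between 5 and 10 kb, members had a median of 10.2 input reads per bin and a log2 ratio of 1.40, against 12.1 and 1.11 outside, while ChIP was 55.5 and 56.7. At 10 kb or more, input was 10.4 against 12.1 and ChIP 55.2 against 56.3. The flag compares ChIP with input, and the part of low input in its frequency was not tested.

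**Figure D4:**
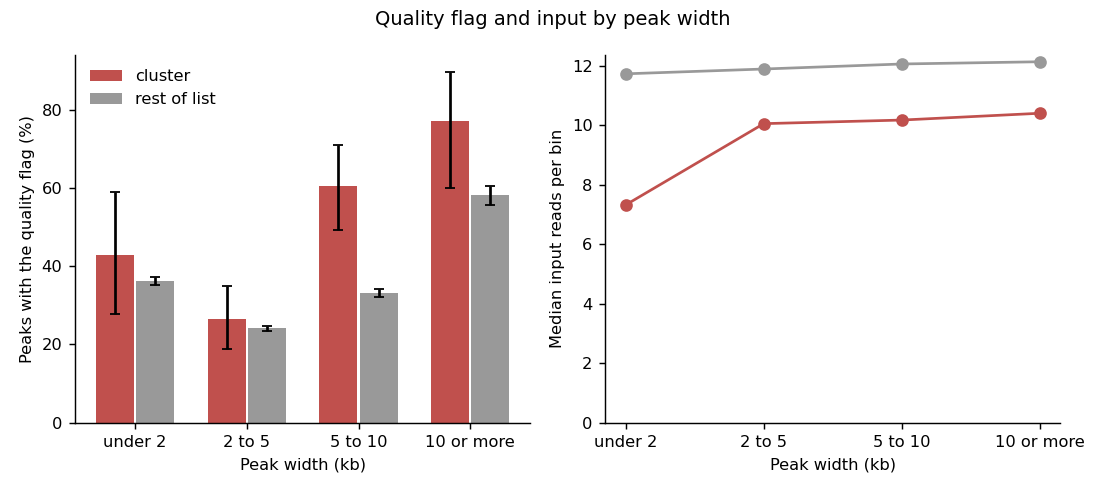
Left: share of peaks with the quality flag (y axis, %, bars from 0, error bars exact 95% intervals) by peak width in kb (x axis), for the 288 members and the 37490 peaks outside the cluster; right: median input reads per bin (y axis) in the same classes. Members differ most at 5 to 10 kb (60.5% against 33.2%) and have the lower median input in all 4 classes.

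The largest ratios were found at low input and the smallest at high input, and input is itself a term of the ratio. The largest log2 ratio, 4.10, belonged to a narrow member from 88513653 to 88514188 (536 bp) with 46 ChIP reads and 1 input read per bin. Its fold of summed counts was 19.0. With the 3 bins inferred from an assumed bin of 200 bp, this fold rested on 3 input counts and had an interval of 6.37 to 93.3. The next 4, at 89506200, 86478163, 88491020 and 87976937, had ratios from 3.19 to 3.38, widths from 800 to 1063 bp and 2.2 to 2.5 input reads per bin. Their ChIP, 45.6 to 49 reads per bin, was below the median of the cluster. The 3 smallest ratios were 0.60 (87396361 to 87400999), 0.61 (89942550 to 89945390) and 0.62 (89950019 to 89956199), with 16.1, 18.1 and 18.0 input reads per bin. The latter pair were also the members with the highest input and lay within 50 kb of the distal edge of the stretch. The third highest input, 16.9 reads per bin, was in the member from 85678276 to 85682271, whose log2 ratio was 0.86.

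The 5 members with the highest mean ChIP were shorter than the median member (4468 bp). Over all members width and mean ChIP were only weakly related, with a Spearman's rho of -0.14, against -0.39 in both flanks and -0.37 in the list. After the first member, the highest mean ChIP values were 80.3 reads per bin from 85792445 to 85793596 (1152 bp, 3.21 times the scaled input, 2.46 to 4.26) and 74.5 from 89763943 to 89767799 (3857 bp, 3.0 times, 2.59 to 3.49). They were followed by 72.3 from 86929646 to 86931206 (1561 bp, 2.26 times) and 70.8 from 85729435 to 85730364 (930 bp, 3.33 times). No member exceeded 83.3, whereas the 95th percentile of the whole list was 92.2 reads per bin.

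A second dense window, 55 to 60 Mb on chromosome 5, was chosen for comparison and not found by a search for a match. It also held 288 peaks, over 5 Mb (57.6 per Mb). It was covered to 33.3%, with a median width of 4243 bp (3868 to 4583) and a median gap of 7671 bp, close to the 4468 and 8028 bp of the cluster. Its median ChIP was 56.7 reads per bin (55.8 to 57.8), and its interval overlapped that of the cluster. Its median input was higher, at 10.8 (10.5 to 11.4), and its median log2 ratio lower, at 1.29 (1.24 to 1.32). The intervals of the cluster for input and ratio did not overlap these, which is a difference between chosen windows and not a test. The quality flag was on 37.5% of its peaks (31.9 to 43.4%) and a mean p of at most 0.05 on 30 (10.4%), more than the 16 in the cluster. Among all 5190 runs of peaks under 100 kb apart, the stretch in the cluster was the 8th longest and had the 4th highest number of peaks. The run that includes the window on chromosome 5 was the longest of the list, at 8.14 Mb with 475 peaks. Both windows were thus taken from dense parts of the list, and their likeness was not tested.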

How the data were processed

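Libraries were sonicated chromatin of dentate gyrus, 2 ChIP and 2 input, sequenced as single reads. The submitters' processing notes name Bowtie 0.12.7 and the build mm9. Which peak caller was used, what was done with duplicate and multiply aligned reads, and how libraries were pooled is, in the sources used here, not given. A false discovery rate of 0.20 stands in the name of the list.

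The authors' mean ChIP, mean input and scaled input are signal in reads per bin, and their log2 value is read as the mean log2 ratio over bins, per the file headers. The deposited −log10 p-values were used as a mean and a smallest p. The highest bin is a count of ChIP reads, per the file headers. Widths, the quality flag and positions were used as deposited. The list holds ChIP above scaled input only (lowest log2 ratio 0.59), so ratios are selected to be high.

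Members and settings were chosen with earlier results of these data known. Peaks were placed by midpoint, and covered bases were cut at the borders. Medians have binomial and shares exact Clopper-Pearson 95% intervals. Folds of named peaks use summed counts, with the number of bins inferred as the one nearest to width over 200 bp that makes both sums whole (tolerance 1e-06 reads per bin). This number was within 1 of width over 200 in 84.0% of members. The bin of 200 bp was assumed, and means that are whole numbers fit any number of bins. All intervals cover counting error or spread over peaks only, since library depth is unknown and reads are not independent molecules. Peaks were named by rule as the widest, those at the ends of ChIP, input and ratio, those at the borders and those beside the longest gaps. Proteins had been foreseen as sequences, and promoters were printed by the same rule instead. Alternatives were stricter p, the flag, higher ChIP, each flank alone, whole peaks, inner borders, merging, recomputed ratios and other gap limits. Calculations were tested on simulated data. Python 3.11.15, numpy 2.4.6, scipy 1.17.1, pandas 2.3.3 and matplotlib 3.10.9 were used.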

Additional observations from a re-analysis of the deposited data

How the results depend on the processing

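No paired analysis was possible because each peak has a single value for the pooled libraries, and no replicate could be left out for the same reason. Relative to both flanks the cluster had 3.27 times the density, 4.52 times the covered share, 1.41 times the median width, a median ChIP that differed by -2.72 and a median input by -1.81 reads per bin, a log2 ratio higher by 0.20, a quality flag share higher by 14.7 percentage points, and gaps 2.42 times shorter. Of 79 values under other settings, 45 stayed within the interval of these or, for the length of the stretch, within 1.5 times, 28 moved outside and 6 changed sign; the cause of these shifts was not tested unless the setting itself leaves few peaks. A mean p of at most 0.05 left 16 members and 2 flank peaks: density was 14.6 times, coverage 18.5 times, ChIP higher by 0.70, input higher by 1.62, log2 ratio -0.039, flag share -12.5 points and gap ratio 0.562. The quality flag alone gave 4.86 and 7.84 times, width 2.02 times, ChIP -4.80 and gaps 3.49 times. ChIP at or above the median of the list, which keeps 75 members and 79 flank peaks, gave 1.74 and 2.18 times, ChIP -1.07, input -2.77, flag share 3.49 points and gaps 1.02 times, so the median gap was nearly equal there while the density was still higher. Against the proximal flank alone density was 2.04 times and coverage 2.59 times. Against the 28 distal peaks alone they were 9.12 and 21.4 times, with width 2.49 times, ChIP -11.7, input -5.60, log2 ratio 0.36, gaps 7.27 times and flag share -4.86 points. The length of the stretch was 1.27 Mb with a gap limit of 50 kb and 1.9 Mb (88100001 to 90000000) as a run of 100 kb windows covered to at least 15%. Settings added after seeing the data were the limits on width and a distal flank that ends before the next long run of peaks: at 2 to 5 kb the flag share differed by 3.62 points, and at 5 kb or more by 24.8 points, with ChIP -1.23 and log2 ratio 0.31. Whole peaks, inner borders, merging, recomputed ratios and the shorter distal flank kept every direction and stayed within the intervals. Depth per library is unknown.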

Other observations

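Members with nearly no input were few and narrow. A mean input under 0.25 times the median of the list (under 2.98 reads per bin) was found in 6 of 288 members (2.08%, exact 95% interval 0.768 to 4.48%), against 1.09% of the list and no flank peak. The interval held the share of the list, and for the 0 of 161 flank peaks its upper limit was 2.27%. The 6 members were 536 to 1095 bp wide, with log2 ratios from 3.06 to 4.10. Their median ChIP of 47.8 reads per bin was below that of the cluster. The quality flag was on 5 of the 6, beside 30.8% of all peaks, and its share among low-input peaks of the list was not analysed here. The 6 lay between 86478163 and 89507184, none within 250 kb of either edge of the dense stretch.

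The proximal flank held a looser group of peaks of its own. Windows of 0.5 Mb between 81 and 83.5 Mb were covered to 17.3 to 21.8% each, with 19 to 27 peaks, and their median input was as low as 10 reads per bin from 81.5 to 82 Mb. In order, their median log2 ratios were 1.38, 1.44, 1.33, 1.32 and 1.11, beside 1.43 in the cluster. The quality flag was on 52.4%, 26.3%, 15%, 22.2% and 35% of their peaks, beside 45.1% in the cluster. From 84.5 to 85 Mb there was no peak. The longest other run of peaks that reaches into the compared part of chromosome 2 began at 94333019, in the distal flank, and ended at 100290999 (5.96 Mb, 262 peaks).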
